A study of Homo sapiens with 29 samples.

Results

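The YAP and TEAD pathway was followed as 10 genes, the rows whose symbols are YAP1, WWTR1, TEAD1, TEAD4, CTGF, CYR61, ANKRD1, AMOTL2, AJUBA and LATS2, among 60675 genes in the count table. All 10 were found under these symbols (CTGF and CYR61 are the older symbols of CCN2 and CCN1), and all 10 passed the filter on low counts. ANKRD1 passed it only through the groups of week 1 and later, where it was high. It had at most 4 counts in any vector, untreated or 20-hour library. Polyadenylated RNA was sequenced from WM239A, a human metastatic melanoma cell line, in 29 libraries of 10 groups. In 9 groups the cells overexpressed BRAF-V600E, the constitutively active form of the kinase BRAF, and received LGX818 (encorafenib, an inhibitor of mutant BRAF) at 500 nM or no drug. These were untreated cells, cells after 20 hours of drug, cells after 1 week (7 days), cells kept on drug to weeks 2, 3 and 4, and an intermittent arm that received DMSO vehicle in week 2, drug again in week 3 (rechallenge) and DMSO again in week 4. The last group was untreated vector cells. Week 4 of continuous drug held 2 libraries and every other group held 3. The labels give no day for the untreated cells, and no untreated group was carried along the weeks. In comparisons of week 1 or later with untreated cells, drug history and time in culture therefore cannot be told apart. The same holds wherever groups collected at different times are compared. What drives the transgene, and whether the cells were 1 clone or a pool, is not given in the sources used here. The labels do not say that replicates were separate cultures, so the p-values measure the spread between these libraries, which may be technical.

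YAP (gene YAP1) and TAZ (gene WWTR1) are transcriptional coactivators without a DNA-binding domain of their own. They act in the nucleus through the TEAD factors, which bind the sequence GGAATG, and the Hippo kinases keep them in the cytoplasm by phosphorylation. CTGF, CYR61 and ANKRD1 are the targets most often used to read out their activity. AMOTL2, AJUBA and LATS2 are targets that also restrain or tune the pathway. YAP and TAZ activity has been described in melanoma cells that tolerate BRAF inhibitors. Since YAP and TAZ are controlled mainly through their localisation and stability, mRNA levels do not measure their activity.

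Promoters of 5 target genes among the members are shown because they hold GGAATG, the element that TEAD factors bind. RefSeq sequences (GRCh38.p14, from 250 bases before to 50 bases after the start site, given on the gene's strand) matched 7 of the 10 members, with 10 promoters. Capitals mark GGAATG, or CATTCC where it lies on the opposite strand.
CTGF, minus strand, chr6:131951323-131951622: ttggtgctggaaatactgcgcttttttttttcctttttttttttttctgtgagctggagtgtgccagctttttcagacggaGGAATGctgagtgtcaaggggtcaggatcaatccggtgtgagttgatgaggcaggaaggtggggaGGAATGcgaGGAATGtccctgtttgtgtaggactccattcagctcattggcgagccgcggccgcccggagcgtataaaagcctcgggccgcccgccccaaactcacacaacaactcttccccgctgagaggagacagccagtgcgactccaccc
ANKRD1, minus strand, chr10:90921038-90921337: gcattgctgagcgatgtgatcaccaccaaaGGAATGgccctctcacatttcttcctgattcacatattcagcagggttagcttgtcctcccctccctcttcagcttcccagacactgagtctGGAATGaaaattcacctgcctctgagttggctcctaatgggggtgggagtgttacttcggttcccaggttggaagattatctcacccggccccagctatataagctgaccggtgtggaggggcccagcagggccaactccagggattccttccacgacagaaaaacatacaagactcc
AMOTL2, downstream promoter of 2, minus strand, chr3:134374398-134374697: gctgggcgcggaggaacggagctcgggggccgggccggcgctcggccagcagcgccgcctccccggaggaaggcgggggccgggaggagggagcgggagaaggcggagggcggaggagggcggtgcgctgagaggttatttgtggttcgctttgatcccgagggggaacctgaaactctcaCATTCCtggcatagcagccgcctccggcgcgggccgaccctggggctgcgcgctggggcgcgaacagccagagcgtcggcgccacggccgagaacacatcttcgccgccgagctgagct
AJUBA, downstream promoter of 2, minus strand, chr14:22976793-22977092: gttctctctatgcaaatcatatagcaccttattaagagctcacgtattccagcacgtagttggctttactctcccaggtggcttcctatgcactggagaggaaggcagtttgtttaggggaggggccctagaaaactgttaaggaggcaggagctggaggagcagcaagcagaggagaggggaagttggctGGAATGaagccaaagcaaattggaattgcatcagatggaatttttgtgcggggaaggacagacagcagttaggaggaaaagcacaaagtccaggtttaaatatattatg
LATS2, minus strand, chr13:21061537-21061836: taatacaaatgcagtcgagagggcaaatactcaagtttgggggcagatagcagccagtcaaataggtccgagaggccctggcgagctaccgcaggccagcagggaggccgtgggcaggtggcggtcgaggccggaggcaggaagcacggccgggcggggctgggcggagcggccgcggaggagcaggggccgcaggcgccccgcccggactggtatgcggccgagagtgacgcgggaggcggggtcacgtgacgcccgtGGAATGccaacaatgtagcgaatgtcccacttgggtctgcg

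CTGF held the motif 3 times, beginning at bases -169, -104 and -95 from the start site. ANKRD1 held it 2 times, at -220 and -128. The motif occurred 1 time in the AMOTL2, AJUBA and LATS2 promoters shown and 1 time in that of YAP1, and was not found in the windows of the 2 WWTR1 promoters or in the upstream promoters of AMOTL2 and AJUBA. Searched on both strands, GGAATG was in 14.0% of all 34943 promoters of the same length, 2 or more times in 1.37% and 3 or more times in 0.126%. A match is a description of the letters and not a measured binding site. CYR61, TEAD1 and TEAD4 were not matched.

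The libraries held between 22934039 and 35804978 counts. As a check of the labels, BRAF averaged 895 CPM (counts scaled to the TMM-adjusted size of each library) in untreated BRAF-V600E cells and 40.2 CPM in vector cells. It averaged 3232 CPM at week 2 off drug and 3404 CPM at week 4 off drug, so the off-drug cells carried more BRAF RNA than the untreated cells. DUSP6, an ERK-induced phosphatase gene, averaged 421 CPM in untreated cells, 11 CPM after 20 hours of drug, 63.9 CPM at week 1, 658 CPM at week 2 off drug and 109 CPM at rechallenge. The table's column names call the 3 rechallenge libraries off drug, while the sample labels call them on drug; they are grouped by the labels. Replicates of each group differed by more than sampling noise (chi-square per gene of 3.47 to 57.0 over 28 pairs), and 4 libraries stood apart from both others of their group: replicate 3 of week 2 on continuous drug, replicate 3 of week 2 off drug, and replicate 1 of each week 3 group. Leaving out these 4 ended no call on a member. The melanocyte marker SOX10 was present in every group, with means of 129 to 964 CPM, and the summed level of 10 melanocytic markers ranged from 363 CPM at week 2 of continuous drug to 8526 CPM at 20 hours. The summed level of 10 fibroblast markers lay at 110 to 114 CPM in untreated cells, 665 to 678 CPM at week 1 and 2711 to 2954 CPM at week 4 of continuous drug, and 9 of the 10 averaged 1 CPM or more at week 1. COL1A1, a collagen gene, averaged 2179 CPM at week 4 of continuous drug and 0.778 CPM in untreated cells. In the same order, FBN1, the gene of fibrillin, averaged 321 and 5.42 CPM, and LUM, the gene of lumican, 51.3 and 0.713 CPM. The highest group mean of DCN, the gene of decorin, was 1.63 CPM. POSTN, of the same list, went the other way, with 851 and 1042 counts at week 4 of continuous drug and 1300, 1554 and 1253 in untreated libraries. The fibroblast sum came mostly from FAP and POSTN in untreated cells and mostly from COL1A1 at week 4 of continuous drug. The summed level of 6 epithelial markers had group means of 17.6 CPM (20 hours) to 128 CPM (week 4 off drug), mostly from the keratin genes KRT18 (9.05 to 109 CPM) and KRT8 (7.47 to 21.3 CPM), while EPCAM, KRT5 and CDH1 stayed below 1 CPM in every group. Of the leukocyte markers, PTPRC, CD3E and CD14 also stayed below 1 CPM, and LYZ, the gene of lysozyme, ran from 0.134 CPM at week 1 to 9.31 CPM at week 4 off drug. In bulk RNA, fewer cells that express a gene and less RNA per cell cannot be told apart.

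**Figure D1:**
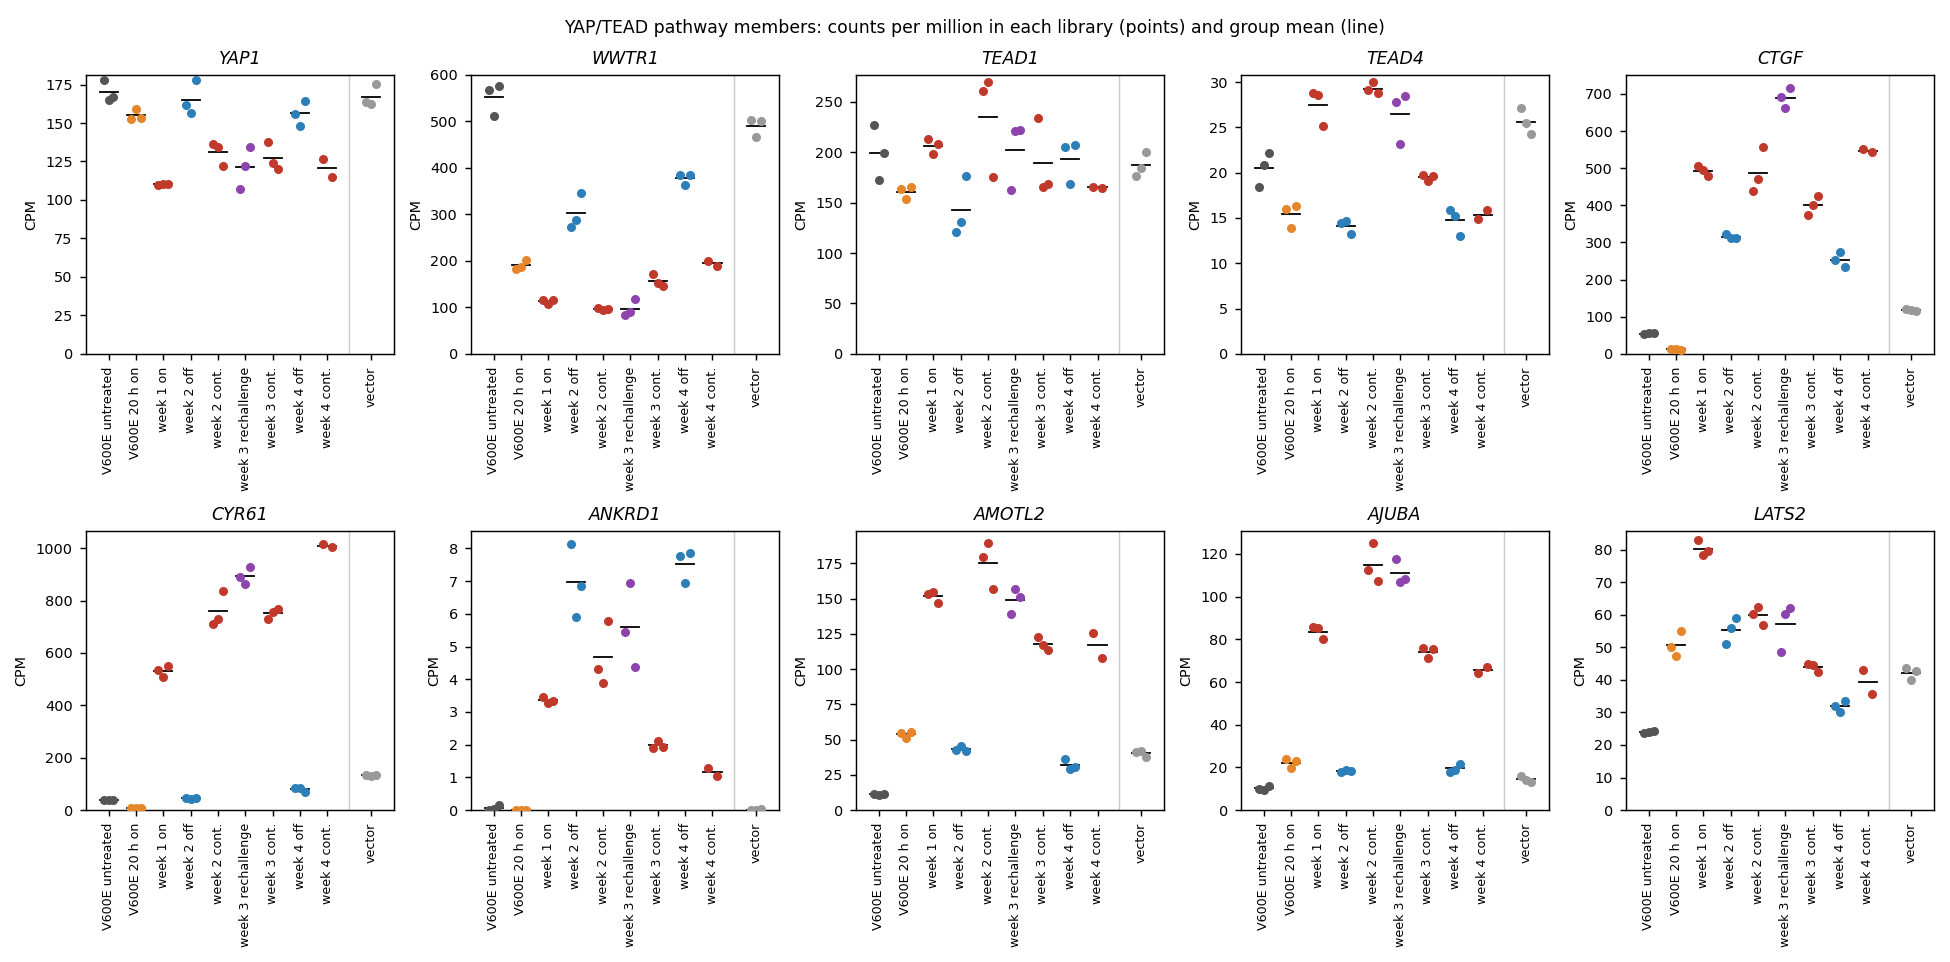
CPM (vertical axes, linear from 0) of the 10 members in each library, with points for libraries and lines for group means; groups run along the horizontal axes with vector cells at the right. CYR61, AMOTL2 and AJUBA are high in every group on drug for a week or more and low off drug, WWTR1 is low in those groups and high off drug, and ANKRD1 is above 5 CPM in all 6 off-drug libraries.

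Between group means, the highest level was 128 times the lowest for CYR61, 59.5 times for CTGF, 15.5 times for AMOTL2, 11.2 times for AJUBA, 5.72 times for WWTR1, 3.35 times for LATS2, 2.08 times for TEAD4, 1.65 times for TEAD1 and 1.54 times for YAP1. ANKRD1 ranged from 0 counts at 20 hours to 688 counts at week 4 off drug, a ratio of at least 181 with 3 counts over the 20-hour group as the floor. The 3 readout targets had the highest ratios of the 10 members, and YAP1 and TEAD1 the lowest. CTGF and CYR61 were also the members whose neighbouring groups were best separated. With the 10 groups put in order, the libraries of 8 of 9 neighbouring pairs did not overlap for either gene. How often this holds over all tested genes was not counted, nor was the share without overlap in any comparison below. For TEAD1, 8 of the 9 neighbouring pairs overlapped, and for YAP1 7 of 9.

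Overexpression of BRAF-V600E went with lower RNA of 6 of the 10 members and higher RNA of 0 (edgeR's test; 0 were also higher at an unadjusted p under 0.05 and with DESeq2). Of all 20494 genes tested, 9.92% were lower and 7.04% higher at an adjusted p under 0.05. CYR61, which encodes a secreted matricellular protein, stood at 36.8, 40.1 and 36.9 CPM in untreated BRAF-V600E cells, against 133, 129 and 136 CPM in vector cells (log2 change -1.81, SE 0.0738, adjusted p = 1.15e-17). AMOTL2, an angiomotin-family protein that binds and retains YAP, stood at 11.6, 10.9 and 11.4 CPM in BRAF-V600E cells, against 41.5, 42.0 and 37.8 CPM in vector cells (log2 change -1.84, SE 0.0906, adjusted p = 1.21e-15). CTGF, the matricellular relative of CYR61, stood at 52.8, 55.1 and 55.3 CPM in BRAF-V600E cells, against 121, 117 and 116 CPM in vector cells (log2 change -1.11, SE 0.0767, adjusted p = 2.06e-12). In none of these 3 genes did the libraries of the groups overlap. LATS2, a kinase that phosphorylates YAP and TAZ, fell by 0.81 on the log2 scale, AJUBA, a LIM protein that inhibits LATS kinases, by 0.50, and the factor TEAD4 by 0.33. The call on TEAD4 did not hold when vector replicate 1 (adjusted p = 0.0862) or untreated replicate 1 (adjusted p = 0.0973) was left out. YAP1 averaged 170.0 CPM in BRAF-V600E cells and 167 CPM in vector cells, and WWTR1 averaged 552 and 490.4 CPM in the same order; neither passed the test, nor did TEAD1. With the 2 groups fitted alone WWTR1 did pass (log2 change 0.18, adjusted p = 0.0409). ANKRD1 had 5 counts over the 3 BRAF-V600E libraries and 1 over the 3 vector libraries, a ratio of 5.07 with an exact 95% counting interval of 0.567 to 240; without untreated replicate 3 it had 1 count in each group.

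The melanocytic markers summed to 2416 to 2530 CPM in BRAF-V600E cells, against 2899 to 3024 CPM in vector cells, with 6 of 10 lower and a median log2 change of -0.41, beside a median of -0.41 for the members. The fibroblast markers summed to 110 to 114 CPM, against 138 to 149.5 CPM in vector cells, and the mitochondrial share of counts was 14.9 to 16.4%, against 12.5 to 13.2%; the part of these in the members' differences was not tested.

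The Hippo kinase list, 20 genes of the cascade and its upstream regulators, had 5 lower and 0 higher members in BRAF-V600E cells than in vector cells (1 higher at an unadjusted p under 0.05 and 0 with DESeq2), with a median log2 change of -0.17 against 0.00 over all genes. FAT4, an atypical cadherin upstream of the cascade, averaged 0.800 CPM in BRAF-V600E cells and 2.19 CPM in vector cells (log2 change -1.46, SE 0.373, adjusted p = 0.00544). Of 9 tested YAP and TEAD partner genes (10 listed), 5 were lower and 0 higher (again 1 at an unadjusted p under 0.05 and 0 with DESeq2), the lower ones including the factor TEAD3 (log2 change -0.73, SE 0.127, adjusted p = 6.43e-05) and the AJUBA relative WTIP (log2 change -0.83, SE 0.125, adjusted p = 8.95e-06). A list of 17 other YAP and TAZ targets had 9 lower and 2 higher members. MYOF, a membrane-repair protein, averaged 1.16 CPM in BRAF-V600E cells and 14.7 CPM in vector cells (log2 change -3.65, SE 0.182, adjusted p = 1.41e-15), and CCDC80, a secreted matrix protein, fell by 1.95 on the log2 scale. F3, which encodes tissue factor, rose by 0.91.

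After 20 hours of LGX818 the targets moved in opposite directions. CTGF and CYR61 fell by 2.23 and 2.27 on the log2 scale, while AMOTL2, AJUBA and LATS2 rose. In all, 5 members were lower and 3 higher, against 25.2% of all tested genes lower and 28.4% higher. CTGF stood at 12.2, 11.9 and 10.6 CPM after 20 hours, against 52.8 to 55.3 CPM in untreated cells (log2 change -2.23, SE 0.0851, adjusted p = 8.01e-20). CYR61 stood at 7.70, 8.06 and 7.91 CPM, against 36.8 to 40.1 CPM in untreated cells (log2 change -2.27, SE 0.0835, adjusted p = 3.32e-20). ANKRD1, an ankyrin-repeat protein of the nucleus and sarcomere, had 0 counts in all 3 libraries at 20 hours. That allows up to 3 counts over the group. It had 5 counts over the untreated libraries, 4 of them in replicate 3, which is too few to give a fold. Its adjusted p of 0.0409 was 0.0574 with DESeq2 and 0.0822 to 0.287 when untreated replicate 3 or any 1 of the 20-hour libraries was left out.

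AMOTL2, by contrast, stood at 54.9, 50.9 and 55.7 CPM after 20 hours, against 10.9 to 11.6 CPM in untreated cells (log2 change 2.25, SE 0.0909, adjusted p = 3.08e-19). AJUBA stood at 23.8, 19.7 and 23.2 CPM, against 9.84, 9.63 and 11.5 CPM in untreated cells (log2 change 1.11, SE 0.0928, adjusted p = 1.23e-11). LATS2 stood at 50.1, 47.3 and 55.0 CPM, against 23.6, 23.9 and 24.2 CPM in untreated cells (log2 change 1.09, SE 0.0868, adjusted p = 4.39e-12). All 3 feedback genes were higher in every 20-hour library than in every untreated library, a separation whose share over all tested genes was not counted. Of the coactivators, WWTR1 fell to 183, 187 and 202 CPM, against 567, 512 and 576 CPM in untreated cells (log2 change -1.53, SE 0.0962, adjusted p = 1.54e-14), while YAP1 stood at 153, 159 and 153 CPM, against 178, 165 and 167 CPM in untreated cells (log2 change -0.13, SE 0.0758, adjusted p = 0.144). TEAD4 fell by 0.41. TEAD1 stood at 164, 154 and 166 CPM, against 228, 172 and 199 CPM in untreated cells, and did not pass the test (log2 change -0.31, SE 0.148, adjusted p = 0.0785). That TEAD1 difference did pass in each of 3 other settings. These were the 2 groups fitted alone (adjusted p = 0.00146), all groups with no count filter (adjusted p = 0.000288), and all groups without untreated replicate 2 (adjusted p = 0.0269). The share of counts from mitochondrial genes was 17.6 to 20.7% at 20 hours, against 14.9 to 16.4% in untreated cells, and the melanocytic markers summed to 8388 to 8526 CPM, against 2416 to 2530 CPM; the fibroblast markers summed to 141 to 149.5 CPM, against 110 to 114 CPM. The part of these in the differences was not tested.

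At 20 hours, of the 17 other targets, 6 were higher and 7 lower, with MYOF (log2 change 3.60, SE 0.183, adjusted p = 8.67e-17) and CCDC80 (log2 change 2.02, SE 0.111, adjusted p = 6.77e-16) leading the rises. The receptor kinase AXL averaged 0.609 CPM at 20 hours and 3.61 CPM in untreated cells (log2 change -2.57, SE 0.195, adjusted p = 1.27e-12), and FJX1, a secreted regulator of Fat signalling, 1.15 and 6.92 CPM (log2 change -2.59, SE 0.231, adjusted p = 5.15e-11). In the Hippo kinase list 8 genes were higher and 7 lower, with a log2 change of -2.09 for WWC1 (KIBRA, a scaffold upstream of the LATS kinases), -1.01 for the FERM-domain regulator FRMD6, 1.37 for FAT4 and 0.83 for WWC3. Among the partners 5 were higher and 2 lower: WTIP rose by 1.41 and TEAD3 by 1.30, while AMOTL1, the relative of AMOTL2, fell by 1.40 and the AJUBA relative LIMD1 by 0.78.

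By week 1 on drug all 6 targets were above their untreated level, and the coactivators were below it. Of the members 7 were higher and 2 lower, against 27.5% of all tested genes higher and 26.7% lower, and the members' median log2 change was 2.38, against 0.00 over all genes. CYR61 stood at 536, 509 and 550.1 CPM at week 1, against 36.8 to 40.1 CPM in untreated cells (log2 change 3.81, SE 0.0788, adjusted p = 1.58e-26). CTGF stood at 506, 495 and 479 CPM, against 52.8 to 55.3 CPM in untreated cells (log2 change 3.18, SE 0.0811, adjusted p = 2.64e-24). ANKRD1 had 305 counts over the week 1 libraries and 5 over the untreated ones, a ratio of 55.1 (exact 95% counting interval 23.4 to 171), with 3.47, 3.29 and 3.32 CPM at week 1. Untreated replicate 3 held 4 of those 5 counts, and without it the ratio was 187 (33.3 to 7417). All 3 readout targets were separated from untreated cells by more than the spread between libraries.

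AMOTL2 stood at 153, 155 and 147 CPM at week 1, against 10.9 to 11.6 CPM in untreated cells (log2 change 3.74, SE 0.0933, adjusted p = 1.54e-24). AJUBA stood at 85.7, 85.1 and 80.1 CPM, against 9.63 to 11.5 CPM in untreated cells (log2 change 3.02, SE 0.0919, adjusted p = 1.93e-22). LATS2 stood at 82.8, 78.5 and 79.6 CPM, against 23.6 to 24.2 CPM in untreated cells (log2 change 1.75, SE 0.0867, adjusted p = 3.86e-17). These 3 genes were higher than in untreated cells at both times, whereas CTGF and CYR61 were lower at 20 hours and higher at week 1. Set against 20 hours, week 1 had 8 members higher and 2 lower, where 28.6% of all genes were higher and 29.1% lower. CYR61 rose by 6.07 on the log2 scale in that comparison (SE 0.0909, adjusted p = 1.44e-29) and CTGF by 5.41 (SE 0.0926, adjusted p = 1.55e-28). ANKRD1 was at least 80.9-fold higher at week 1 than at 20 hours, where it had 0 counts. AJUBA rose by 1.91, AMOTL2 by 1.49 and LATS2 by 0.66 over the same interval. The melanocytic markers summed to 906 to 970 CPM at week 1, against 8388 to 8526 CPM at 20 hours and 2416 to 2530 CPM in untreated cells. The mitochondrial share was 9.43 to 11.1% at week 1, against 17.6 to 20.7% at 20 hours and 14.9 to 16.4% in untreated cells; the part of either in these differences was not tested.

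WWTR1 continued to fall, to 115, 107 and 116 CPM at week 1, against 512 to 576 CPM in untreated cells (log2 change -2.29, SE 0.0987, adjusted p = 1.11e-18). YAP1 stood at 110.0, 110.3 and 110.4 CPM, against 165 to 178 CPM in untreated cells (log2 change -0.62, SE 0.0762, adjusted p = 2.95e-08). Per kilobase of annotated exon, WWTR1 was at 13.4 CPM and YAP1 at 17.5 CPM at week 1. In untreated cells they were at 65.6 and 27.0 CPM, so by this measure the order of the 2 coactivators was turned. Without division by length it was not, with week 1 means of 113 CPM for WWTR1 and 110.3 CPM for YAP1. All annotated exons were counted as length, which need not be that of the transcripts in these cells. TEAD4 stood at 28.7, 28.6 and 25.1 CPM, against 18.4, 20.8 and 22.2 CPM in untreated cells (log2 change 0.42, SE 0.0914, adjusted p = 0.000215). TEAD1 levels overlapped between week 1 and untreated cells (log2 change 0.05, SE 0.148, adjusted p = 0.805). Its rise against 20 hours (log2 change 0.36, adjusted p = 0.0386) lost the call without 20-hour replicate 2 or 3 or week 1 replicate 1 or 2 (adjusted p = 0.0522 to 0.1095).

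**Figure D2:**
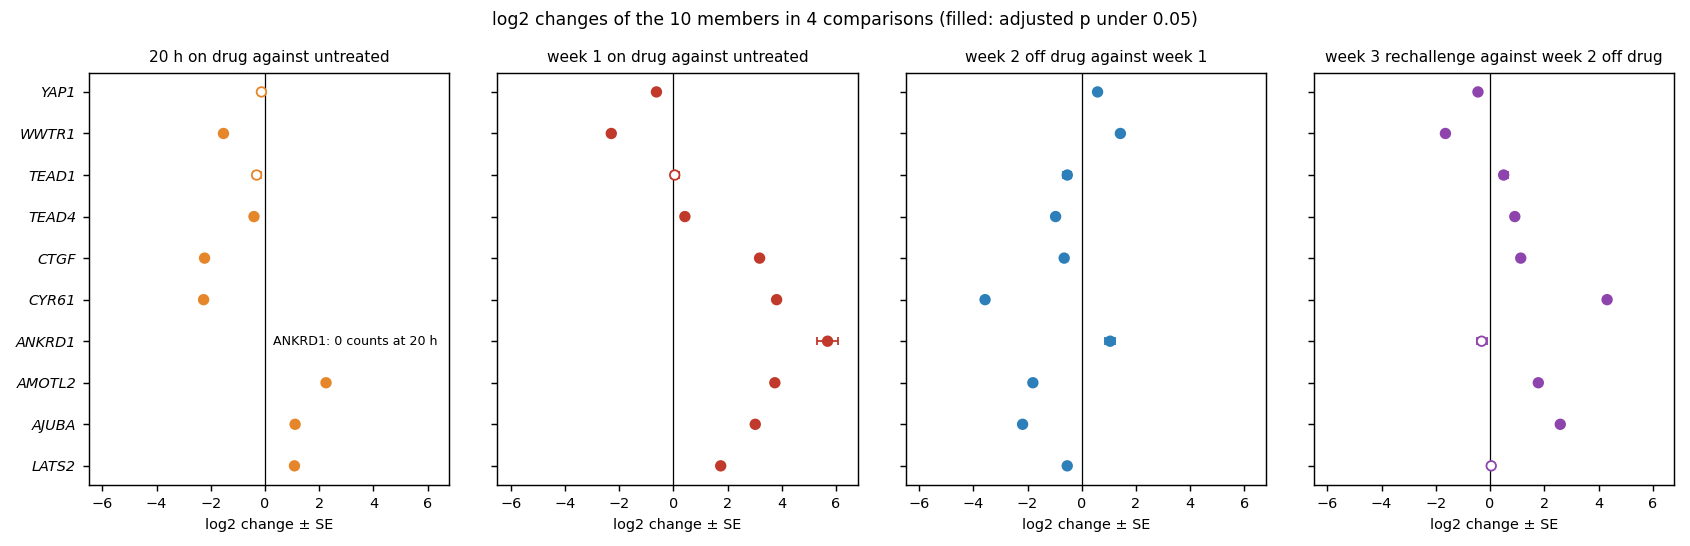
log2 changes (horizontal axes, with SE bars) of the 10 members in 4 comparisons, filled where the adjusted p was under 0.05. CTGF and CYR61 lie below 0 at 20 hours and above 0 at week 1, while WWTR1 lies below 0 in both and again at rechallenge.

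Of the 17 other targets, 13 were higher and 1 lower at week 1 than in untreated cells, with a median log2 change of 2.16. MYOF averaged 727 CPM at week 1 and 1.16 CPM in untreated cells (log2 change 9.28, SE 0.180, adjusted p = 3.51e-27), and CCDC80 averaged 228 and 2.24 CPM (log2 change 6.68, SE 0.105, adjusted p = 4.36e-29). RBMS3, an RNA-binding protein, was the 1 that fell (log2 change -0.62, SE 0.102, adjusted p = 5.28e-06). In the Hippo kinase list 11 genes rose and 6 fell: FAT4 rose by 4.25 and WWC1 by 3.37, while the kinase adaptor MOB1B fell by 0.96 and the scaffold SAV1 by 0.49. The partners divided evenly, with 4 higher and 4 lower. VGLL3, a TEAD-binding cofactor, had 714 counts at week 1 and 4 in untreated cells, a ratio of 161 (exact 95% counting interval 62.7 to 594), and WTIP rose by 2.55. AMOT and AMOTL1, angiomotin relatives of AMOTL2, fell by 1.16 and 1.08. Of the fibroblast markers 7 were higher and 2 lower at week 1 than in untreated cells, with the sums given above; their part in the members' and targets' differences was not tested.

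**Figure D3:**
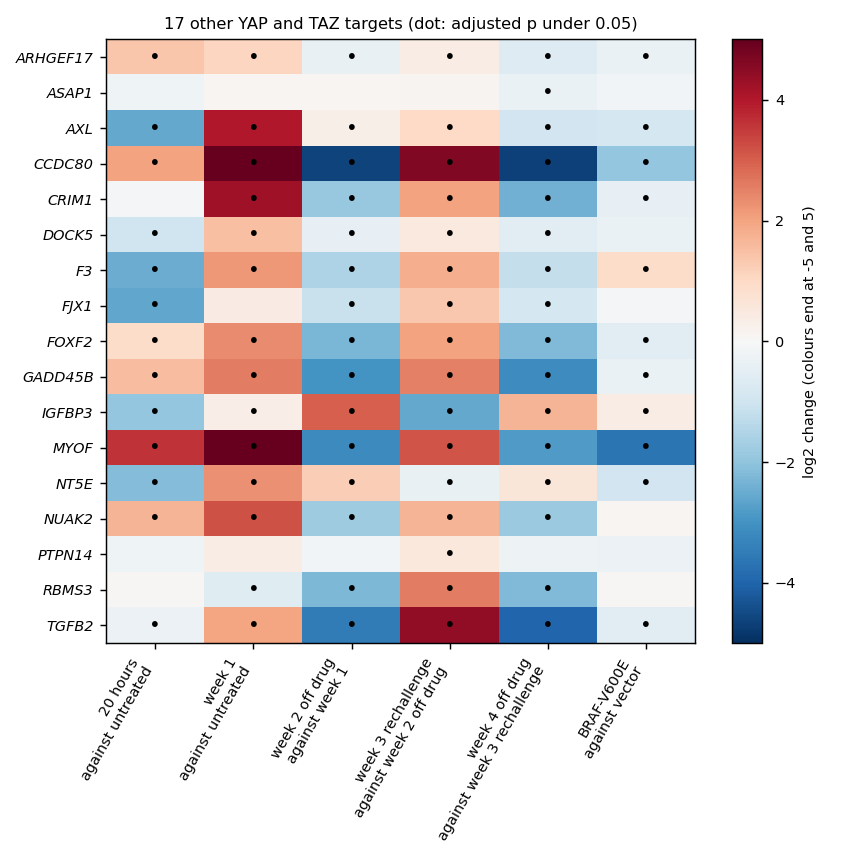
log2 changes (colour, ending at -5 and 5) of 17 other YAP and TAZ targets (rows) in 6 comparisons (columns), with a dot where the adjusted p was under 0.05. At week 1 against untreated cells 13 of the 17 are higher, and at week 2 off drug against week 1 12 are lower.

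By week 4 of continuous drug the targets had separated. Compared with week 1, 2 members were higher and 5 lower at week 4, against 21.1% of all genes higher and 19.9% lower. CYR61 reached 1016 and 1004 CPM at week 4, against 536, 509 and 550.1 CPM at week 1 (log2 change 0.93, SE 0.0765, adjusted p = 2.36e-11). CTGF stood at 550.3 and 543 CPM at week 4, against 479 to 506 CPM at week 1, which did not pass the test (log2 change 0.15, SE 0.0822, adjusted p = 0.157). ANKRD1 fell to 1.29 and 1.05 CPM, against 3.47, 3.29 and 3.32 CPM at week 1 (log2 change -1.51, SE 0.261, adjusted p = 2.59e-05). Of these 3 readout targets, 1 was higher, 1 lower and 1 not called. LATS2 fell to 43.0 and 35.7 CPM, against 78.5 to 82.8 CPM at week 1 (log2 change -1.03, SE 0.0957, adjusted p = 2.94e-10), and TEAD4 fell by 0.84. AMOTL2 and AJUBA fell by 0.38 and 0.35, with no call on AMOTL2 when week 4 replicate 2 was left out (adjusted p = 0.0716). WWTR1 rose to 199.9 and 189.8 CPM, against 107 to 116 CPM at week 1 (log2 change 0.79, SE 0.105, adjusted p = 2.83e-07). YAP1 and TEAD1 did not pass the test in the fit over all groups, while with the 2 groups fitted alone YAP1, TEAD1 and CTGF also passed it (log2 changes 0.14, -0.31 and 0.16). At the steps between, CYR61 averaged 760 CPM at week 2 and 751 CPM at week 3 of continuous drug, and ANKRD1 averaged 4.67 and 1.98 CPM.

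After 1 week without drug all 10 members differed from week 1, 3 being higher and 7 lower. Over all genes 27.7% were higher and 26.8% lower. CYR61 fell to 46.0, 43.0 and 45.6 CPM off drug, against 536, 509 and 550.1 CPM at week 1 (log2 change -3.57, SE 0.0778, adjusted p = 1.25e-25). CTGF fell to 323, 311 and 311 CPM, against 479 to 506 CPM at week 1 (log2 change -0.65, SE 0.0742, adjusted p = 1.03e-08). ANKRD1 rose instead, to 8.13, 5.90 and 6.86 CPM, against 3.47, 3.29 and 3.32 CPM at week 1 (log2 change 1.05, SE 0.195, adjusted p = 4.23e-05). Of the 3 readout targets 2 were lower and 1 higher, in libraries that did not overlap between the groups. AJUBA fell to 18.1, 19.0 and 18.2 CPM, against 80.1 to 85.7 CPM at week 1 (log2 change -2.18, SE 0.0872, adjusted p = 2.21e-19). AMOTL2 fell to 43.0, 45.7 and 41.7 CPM, against 147 to 155 CPM at week 1 (log2 change -1.80, SE 0.0836, adjusted p = 9.15e-18). LATS2 fell by 0.54.

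WWTR1 rose to 273, 289 and 347 CPM off drug, against 115, 107 and 116 CPM at week 1 (log2 change 1.43, SE 0.0963, adjusted p = 9.02e-14). YAP1 rose to 162, 156 and 178 CPM, against 110.0, 110.3 and 110.4 CPM at week 1 (log2 change 0.58, SE 0.0762, adjusted p = 1.21e-07). TEAD4 fell to 14.4, 14.6 and 13.2 CPM, against 25.1 to 28.7 CPM at week 1 (log2 change -0.96, SE 0.0937, adjusted p = 3.53e-10). TEAD1 fell by 0.53 and, without the libraries that stood apart, by 0.71. On withdrawal YAP1 and WWTR1 rose while TEAD1 and TEAD4 fell. TEAD2, a TEAD factor of the partner list, rose by 0.35 (edgeR, adjusted p = 0.000783). The fibroblast markers summed to 70.1 to 72.6 CPM off drug, against 665 to 678 CPM at week 1, and the melanocytic markers to 748 to 757 CPM, against 906 to 970 CPM; their part in these differences was not tested.

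Set against week 2 of continuous drug, the same off-drug libraries had 3 members higher and 6 lower, where 27.3% of all genes were higher and 27.9% lower. CYR61 was at 46.0, 43.0 and 45.6 CPM off drug, against 712, 731 and 837 CPM on continuous drug (log2 change -4.08, SE 0.0796, adjusted p = 1.33e-26), and AJUBA was lower by 2.64 on the log2 scale. WWTR1 was higher, with 273, 289 and 347 CPM off drug, against 98.9, 93.7 and 96.8 CPM on drug (log2 change 1.65, SE 0.0971, adjusted p = 3.37e-15). LATS2 was at 51.1, 56.0 and 58.9 CPM off drug, against 60.3, 62.5 and 56.8 CPM on drug, and did not pass the test (log2 change -0.11, SE 0.0833, adjusted p = 0.26). Without the libraries that stood apart it did, with a log2 change of -0.20 (adjusted p = 0.0430). TEAD1 fell by 0.72, with overlapping libraries, and by 1.07 without those that stood apart. ANKRD1 was higher by 0.57, a call that was lost without replicate 2 of week 2 on continuous drug (adjusted p = 0.0695) or replicate 1 of week 2 off drug (adjusted p = 0.0758). The fibroblast markers summed to 70.1 to 72.6 CPM off drug, against 1493 to 1682 CPM on continuous drug, and the melanocytic markers to 748 to 757 CPM, against 363 to 404 CPM; their part was not tested.

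Off drug at week 2, 9 of the 10 genes differed from their untreated levels. Relative to untreated cells 6 members were higher and 3 lower, against 31.2% of all genes higher and 28.8% lower. CTGF was at 323, 311 and 311 CPM off drug, against 52.8, 55.1 and 55.3 CPM in untreated cells (log2 change 2.53, SE 0.0792, adjusted p = 5.33e-22). ANKRD1 had 556 counts off drug and 5 in untreated cells, a ratio of 114 (exact 95% counting interval 48.4 to 351) that was 386 (68.9 to 15254) without untreated replicate 3. AMOTL2 was at 43.0, 45.7 and 41.7 CPM off drug, against 11.6, 10.9 and 11.4 CPM in untreated cells (log2 change 1.94, SE 0.0906, adjusted p = 8.79e-18). CYR61 had the smallest log2 change of the 6 targets, with 46.0, 43.0 and 45.6 CPM off drug, against 36.8, 40.1 and 36.9 CPM in untreated cells (log2 change 0.24, SE 0.0735, adjusted p = 0.0055); the call was lost without week 2 off-drug replicate 3 (adjusted p = 0.0650). LATS2 was higher by 1.21 and AJUBA by 0.84. WWTR1 was at 273, 289 and 347 CPM off drug, against 567, 512 and 576 CPM in untreated cells (log2 change -0.87, SE 0.0945, adjusted p = 2.86e-09), and TEAD4 was lower by 0.54. TEAD1 was lower by 0.48, with overlapping libraries, and the call was lost without untreated replicate 1 (adjusted p = 0.0569) or off-drug replicate 1 (adjusted p = 0.0525). YAP1 levels overlapped (log2 change -0.04, SE 0.0757, adjusted p = 0.668). BRAF RNA was higher in the off-drug cells, as given above, and the melanocytic markers summed to 748 to 757 CPM off drug, against 2416 to 2530 CPM in untreated cells; the part of either in these differences was not tested.

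Among the 17 other targets, 12 were lower and 3 higher off drug at week 2 than at week 1, with a median log2 change of -1.53. CCDC80 averaged 9.32 CPM off drug and 228 CPM at week 1 (log2 change -4.61, SE 0.0895, adjusted p = 1.17e-26), and the ligand gene TGFB2 averaged 3.15 and 35.5 CPM (log2 change -3.50, SE 0.123, adjusted p = 9.06e-21). IGFBP3, a secreted binder of insulin-like growth factors, rose to 1913 CPM off drug, against 243 CPM at week 1 (log2 change 2.97, SE 0.0862, adjusted p = 9.21e-23), and NT5E, an adenosine-producing ectoenzyme, rose by 1.25. The Hippo kinase list had 10 lower and 4 higher genes: FAT4 fell by 2.55 and the scaffold gene RASSF1 by 1.70, while STK4, a kinase that activates LATS, rose by 0.52 and SAV1 by 0.39. Of the partners 4 were higher and 2 lower, with AMOTL1 at 408 CPM off drug and 134 CPM at week 1 (log2 change 1.61, SE 0.133, adjusted p = 1.00e-11), AMOT up by 0.60 and WTIP down by 1.22. The TEAD-binding cofactor VGLL4 fell by 0.18, a call lost with RLE factors (adjusted p = 0.0726), with no count filter (adjusted p = 0.0594) and without off-drug replicate 1 (adjusted p = 0.0666).

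At rechallenge in week 3, 6 members were higher and 2 lower than at week 2 off drug. Over all genes 27.8% were higher and 28.5% lower. CYR61 rose to 891, 865 and 927 CPM at rechallenge, against 46.0, 43.0 and 45.6 CPM off drug (log2 change 4.32, SE 0.0804, adjusted p = 8.85e-27). CTGF rose to 690.4, 662 and 717 CPM, against 323, 311 and 311 CPM off drug (log2 change 1.13, SE 0.0747, adjusted p = 5.63e-14). ANKRD1 stood at 5.46, 6.95 and 4.37 CPM, against 8.13, 5.90 and 6.86 CPM off drug, with overlapping libraries (log2 change -0.31, SE 0.187, adjusted p = 0.161). Without rechallenge replicate 2, the highest of the 3, its log2 change was -0.51 and passed the test (adjusted p = 0.0349). AJUBA rose to 118, 107 and 108 CPM, against 18.1, 19.0 and 18.2 CPM off drug (log2 change 2.59, SE 0.0878, adjusted p = 5.63e-21). AMOTL2 rose to 139, 157 and 151 CPM, against 43.0, 45.7 and 41.7 CPM off drug (log2 change 1.78, SE 0.0835, adjusted p = 1.41e-17). LATS2 libraries overlapped (log2 change 0.04, SE 0.0831, adjusted p = 0.698), and without those that stood apart its log2 change was 0.19 (adjusted p = 0.0492).

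WWTR1 fell at rechallenge to 82.9, 90.1 and 117 CPM, against 273, 289 and 347 CPM off drug (log2 change -1.65, SE 0.0969, adjusted p = 3.55e-15). YAP1 fell to 107, 122 and 134 CPM, against 162, 156 and 178 CPM off drug (log2 change -0.45, SE 0.0760, adjusted p = 9.16e-06). TEAD4 rose by 0.91, and TEAD1 rose by 0.50 with overlapping libraries, or by 0.82 without those that stood apart. YAP1 and WWTR1 were lower, and TEAD1 and TEAD4 higher, than off drug. The fibroblast markers summed to 1171 to 1283 CPM at rechallenge, against 70.1 to 72.6 CPM off drug, with 8 of 10 higher and a median log2 change of 2.84. The melanocytic markers summed to 508 to 633 CPM, against 748 to 757 CPM off drug. The part of either list in the members' differences was not tested. Of the 17 other targets 14 were higher and 2 lower than off drug, with a median log2 change of 1.72, led by CCDC80 (4.61) and TGFB2 (4.43); IGFBP3 fell by 2.56 and NT5E by 0.38. The Hippo kinase list had 10 higher and 5 lower genes, with WWC1 up by 2.47, FAT4 up by 2.43, MOB1B down by 0.95 and STK4 down by 0.46. Of the partners 3 were higher and 4 lower, with VGLL3 up by 2.27, WTIP up by 1.15, AMOTL1 down by 1.13 and VGLL4 down by 0.74.

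Rechallenged cells were also compared with cells held on drug through week 3, both being on drug when collected. Here 7 members were higher and 1 lower at rechallenge, against 14% of all genes higher and 14.3% lower. ANKRD1 stood at 5.46, 6.95 and 4.37 CPM at rechallenge, against 1.91, 2.11 and 1.92 CPM on continuous drug (log2 change 1.49, SE 0.205, adjusted p = 1.47e-06). CTGF stood at 690.4, 662 and 717 CPM, against 373, 400.1 and 425 CPM on continuous drug (log2 change 0.79, SE 0.0742, adjusted p = 8.98e-10). AJUBA stood at 118, 107 and 108 CPM, against 75.7, 71.2 and 75.4 CPM on continuous drug (log2 change 0.58, SE 0.0805, adjusted p = 1.14e-06). All 6 targets among the members were higher at rechallenge, the other rises being 0.37 for LATS2, 0.34 for AMOTL2 and 0.25 for CYR61. The 17 other targets were divided, with 5 higher, 4 lower and 8 not called, and a median log2 change of -0.11. TEAD4 rose by 0.44, and WWTR1 fell to 82.9, 90.1 and 117 CPM, against 172, 153 and 145 CPM on continuous drug (log2 change -0.70, SE 0.0954, adjusted p = 9.50e-07). TEAD1 and YAP1 overlapped, but without the libraries that stood apart TEAD1 was higher by 0.41 (adjusted p = 0.000849). The fibroblast markers summed to 1171 to 1283 CPM at rechallenge, against 2085 to 2279 CPM on continuous drug, with 8 of 10 lower. Their part in these differences was not tested. The rechallenged cells had spent week 2 off drug, so the groups also differed in total time on drug, whose part was not tested. At week 2 of continuous drug the means were 59.9 (LATS2), 115 (AJUBA), 175 (AMOTL2), 488 (CTGF), 760 (CYR61) and 4.67 CPM (ANKRD1). At rechallenge they were 57.0, 111, 149, 690, 894 and 5.59 CPM in the same order.

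The second drug response was then tested against the first, as the change at rechallenge (week 3 against week 2 off drug) minus the change on first exposure (week 1 against untreated). These 2 changes share no libraries. For 5 members the second change was lower and for 3 it was higher than the first, against 25% of all genes lower and 23.3% higher. ANKRD1 changed by -0.31 at rechallenge and by 5.69 on first exposure (difference -6.00, SE 0.459, adjusted p = 6.38e-12). CTGF changed by 1.13 at rechallenge and by 3.18 on first exposure (difference -2.05, SE 0.106, adjusted p = 3.10e-16). AMOTL2 changed by 1.78 and by 3.74 in the same order (difference -1.96, SE 0.120, adjusted p = 1.49e-14), and LATS2 by 0.04 and by 1.75 (difference -1.70, SE 0.120, adjusted p = 3.30e-13). The difference for ANKRD1 rests on 5 untreated counts and was -7.57 without untreated replicate 3. CTGF started from 315 CPM off drug, against 54.4 CPM untreated, and reached 690 CPM at rechallenge, against 493 CPM at week 1. AMOTL2 started from 43.4 against 11.3 CPM and reached 149 against 152 CPM. LATS2 started from 55.4 against 23.9 CPM and reached 57.0 against 80.3 CPM. ANKRD1 started from 6.96 against 0.0613 CPM and reached 5.59 against 3.36 CPM. So for CTGF and ANKRD1 a smaller second change went with a higher level reached. CYR61 changed by 4.32 at rechallenge and by 3.81 on first exposure (difference 0.51, SE 0.101, adjusted p = 0.0001). AJUBA differed by -0.43 between the 2 responses, WWTR1 by 0.64 (a smaller fall at rechallenge) and TEAD4 by 0.49. YAP1 and TEAD1 did not pass the test, but did so without the libraries that stood apart (differences of 0.32 and 0.77) and also without week 2 off-drug replicate 3 alone (adjusted p = 0.0444 for YAP1 and 0.00721 for TEAD1) or rechallenge replicate 1 alone (adjusted p = 0.0470 and 0.0235). TEAD1 also passed without untreated replicate 2 (adjusted p = 0.0473) and with no count filter (adjusted p = 0.00215).

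**Figure D4:**
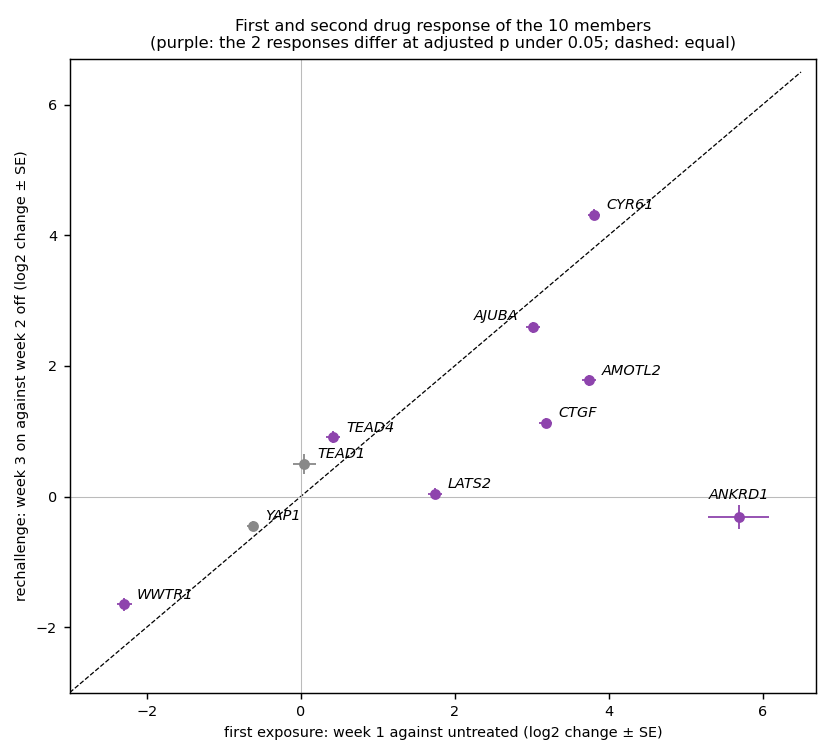
log2 change at rechallenge (vertical axis) against log2 change on first exposure (horizontal axis) for the 10 members, with SE bars; the dashed line marks equal changes. CYR61 and AJUBA lie near the line, while CTGF, AMOTL2, LATS2 and ANKRD1 lie below it.

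After a second withdrawal in week 4, 6 members were lower and 2 higher than at rechallenge. Over all genes 22.3% were lower and 23.1% higher. CYR61 fell to 85.2, 85.6 and 70.4 CPM at week 4 off drug, against 891, 865 and 927 CPM at rechallenge (log2 change -3.47, SE 0.0768, adjusted p = 3.67e-25). CTGF fell to 252, 274 and 233 CPM, against 690.4, 662 and 717 CPM at rechallenge (log2 change -1.45, SE 0.0753, adjusted p = 2.46e-16). WWTR1 rose to 386, 363 and 384 CPM, against 82.9, 90.1 and 117 CPM at rechallenge (log2 change 1.97, SE 0.0978, adjusted p = 8.02e-17). None of these 3 genes had overlapping libraries. AJUBA fell by 2.50, AMOTL2 by 2.23, TEAD4 by 0.85 and LATS2 by 0.84, and YAP1 rose by 0.37. ANKRD1 stood at 7.77, 6.94 and 7.87 CPM, against 5.46, 6.95 and 4.37 CPM at rechallenge (log2 change 0.43, SE 0.185, adjusted p = 0.0607), and passed the test with RLE factors (adjusted p = 0.0489) and without rechallenge replicate 2 (adjusted p = 0.0109). Of the 17 other targets 14 were lower and 2 higher. The fibroblast markers summed to 69.4 to 73.9 CPM off drug, against 1171 to 1283 CPM at rechallenge, with 8 of 10 lower, and the melanocytic markers to 1381 to 1703 CPM, against 508 to 633 CPM, with 8 of 10 higher. Their part in the members' differences was not tested.

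Compared with week 4 of continuous drug, the week 4 off-drug cells had 5 members lower and 3 higher, against 25.1% of all genes lower and 26.1% higher. CYR61 was lower by 3.65, AMOTL2 by 1.87, AJUBA by 1.75 and CTGF by 1.11 on the log2 scale. ANKRD1 went the other way, with 7.77, 6.94 and 7.87 CPM off drug, against 1.29 and 1.05 CPM on continuous drug (log2 change 2.67, SE 0.254, adjusted p = 5.26e-10). WWTR1 stood at 386, 363 and 384 CPM off drug, against 199.9 and 189.8 CPM on drug (log2 change 0.95, SE 0.108, adjusted p = 9.75e-09), and YAP1 was higher by 0.37. LATS2 was lower by 0.31, a call lost without replicate 1 of week 4 on continuous drug (adjusted p = 0.275) or off-drug replicate 2 (adjusted p = 0.0748). All 10 fibroblast markers were lower, summing to 69.4 to 73.9 CPM off drug, against 2711 to 2954 CPM on continuous drug, and 7 of 10 melanocytic markers were higher, summing to 1381 to 1703 CPM, against 461 to 482 CPM; their part was not tested.

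Testing the second withdrawal against the first, 2 members were lower and 1 higher, against 9.5% of all genes lower and 7.6% higher. CTGF changed by -1.45 on the second and by -0.65 on the first withdrawal (difference -0.80, SE 0.105, adjusted p = 9.67e-07). AMOTL2 changed by -2.23 on the second and by -1.80 on the first (difference -0.42, SE 0.116, adjusted p = 0.00916), a call lost without off-drug replicate 2 of week 2 (adjusted p = 0.0527) or of week 4 (adjusted p = 0.0592). WWTR1 changed by 1.97 on the second and by 1.43 on the first (difference 0.54, SE 0.134, adjusted p = 0.00401). For CYR61 the difference was 0.09 (SE 0.10, adjusted p = 0.613). AJUBA and LATS2 did not pass, but did with DESeq2 (adjusted p = 0.0224 and 0.0492). LATS2 also passed without week 2 off-drug replicate 1 (adjusted p = 0.0455) or rechallenge replicate 1 (adjusted p = 0.0114), and AJUBA without week 4 off-drug replicate 3 (adjusted p = 0.0324) or with RLE factors (adjusted p = 0.0424). TEAD1 did not pass over all libraries and did so without week 2 off-drug replicate 3 (difference 0.68, adjusted p = 0.0200) or with no count filter (adjusted p = 0.000738). Without the libraries that stood apart, YAP1 (-0.25, adjusted p = 0.0449), TEAD1 (0.52, 0.00172) and LATS2 (-0.36, 0.0123) passed edgeR's test. The melanocytic markers had 9 of 10 differences higher and 1 lower, with a median of 1.61, against -0.01 over all genes. Of 10 fibroblast markers 2 were higher and 5 lower. The part of either list in the members' differences was not tested.

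Across the 10 group means of log2 CPM, the members fell into patterns that are given here as descriptions, since the groups share cells and a time course. AMOTL2 and AJUBA followed each other (Pearson r = 0.95) and ran against WWTR1 (r = -0.92 for AMOTL2 and -0.94 for AJUBA). CTGF followed CYR61 (r = 0.88) and ANKRD1 (r = 0.82), while CYR61 and ANKRD1 were less alike (r = 0.54). YAP1 followed WWTR1 (r = 0.85), and TEAD1 followed TEAD4 (r = 0.80). CTGF ran against MITF, the master regulator of the melanocyte lineage (r = -0.92); MITF averaged 349 CPM in untreated cells, 723 CPM at 20 hours, 11.4 CPM at week 1 and 34.7 CPM at week 2 off drug. The genes most like the mean profile of CTGF, CYR61 and ANKRD1 over the same 10 groups were NTM (r = 0.989), MAST2 (0.989), ILK (0.988), R3HDM4 (0.988) and FGF5 (0.985). NTM, a neural cell adhesion molecule, had geometric means of 1.79 CPM in untreated cells, 0.691 CPM at 20 hours, 56.3 CPM at week 1, 22.4 CPM at week 2 off drug and 91.8 CPM at rechallenge.

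Some members overlap other annotated genes. YAP1, WWTR1 and CTGF share exon bases with genes on the opposite strand, and whether the counting used strand is not given in the sources used here. Over all 29 libraries those genes had 355 counts (AP000942.2), 577 counts (WWTR1-AS1) and 80 counts (AL133346.1), against 118504 for YAP1, 213244 for WWTR1 and 286519 for CTGF. Reads from both strands of a shared base cannot be told apart if strand was not used.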

How the data were processed

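The authors deposited unnormalized read counts per gene for 29 libraries, in whole numbers; per the submitters' processing notes the tools were HISAT2 2.0.3 and HTSeq 0.6.1, with Trimmomatic 0.32 and SAMtools 0.1.18, and the build was GRCh38. The annotation release and strand setting are not given in the sources used here. Per the labels' protocols, frozen cells of all samples were thawed for RNA extraction when the experiment had ended, and 100 ng went into NuGEN Universal Plus mRNA-seq libraries. Gene positions came from GENCODE 29, which matched 57055 of 60675 gene IDs.

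Counts were tested with edgeR 4.0.16 (R 4.3.3) by its quasi-likelihood method; all 29 libraries entered 1 model of group means, with TMM factors and filterByExpr (20494 genes kept). P-values were adjusted by Benjamini-Hochberg over all tested genes within each of 14 comparisons, with a threshold of 0.05. The SE is that of the log2 change. CPM used TMM-scaled library sizes. Intervals and floors of 3 counts cover counting error only. The code was tested on simulated data.

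The members, gene lists and tests were chosen with earlier results of these data known. Named were all members, up to 2 largest rises and 2 largest falls per list in 5 comparisons with a mean of at least 1 CPM in either group, the check genes, and the 5 genes most like the mean CTGF, CYR61 and ANKRD1 profile. Lists are described by counts and medians, with no set test. The results were recomputed with a replicate block, the compared groups alone, DESeq2 1.42.0, no count filter, RLE factors, leaving out each library and, chosen after seeing the data, leaving out the 4 libraries that stood apart (chi-square per gene above 15 against both others of the group).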

Additional observations from a re-analysis of the deposited data

Results flagged for a closer look

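Responses to the same contrast that differed between its first and second round are listed here, each with the difference on the log2 scale from the test of the difference itself in edgeR. For the drug response at rechallenge minus that on first exposure, the difference was -6.00 for ANKRD1, -2.05 for CTGF, -1.96 for AMOTL2, -1.70 for LATS2 and -0.43 for AJUBA. It was 0.64 for WWTR1, 0.51 for CYR61 and 0.49 for TEAD4. For the response to the second withdrawal minus that to the first, the difference was -0.80 for CTGF, -0.42 for AMOTL2 and 0.54 for WWTR1. The starting points of the 2 drug exposures also differed in BRAF RNA, which was higher at week 2 off drug than in untreated cells, as given in the results. Its part in the differences between the exposures was not tested. The 2 drug exposures differed in starting level too, since all 6 targets were higher at week 2 off drug than in untreated cells.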

How the results depend on the processing

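Of 1718 values of the members under the alternatives, 1647 kept their direction and their side of the threshold, 21 lost the call, 35 gained one and 15 changed sign, and none of the last had been called. The replicate block changed no direction or call among its 140 values. It kept 10 called members at week 2 off drug against week 1 and 8 in the rechallenge difference. Deviations of same-numbered libraries from their group means had correlations of -0.436 to 0.326. With so few libraries per group these cannot show whether a number marks a shared culture or day. The count of members called in the withdrawal difference, 3 in the main analysis, was 5 with DESeq2 and 6 without the 4 libraries that stood apart, and 2 to 4 when 1 library was left out; the cause was not tested. Counts of called members were otherwise 5 to 6 for BRAF-V600E against vector and 7 to 9 for 20 hours against untreated when 1 library was left out. No count of all genes called moved by over 1.5 times.

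Sign changes were of small differences. For YAP1 at week 2 off drug against untreated, the log2 change was 0.00918 with DESeq2, 0.00859 with RLE factors and -0.146 to 0.00382 when 1 library was left out. For YAP1 at rechallenge against week 3 of continuous drug it was 0.0718 without the libraries that stood apart and -0.132 to 0.0299 when 1 library was left out. Leaving out 1 library gave ranges for BRAF-V600E against vector of -0.00577 to 0.0656 (YAP1), -0.00596 to 0.200 (TEAD1), -0.0152 to 0.0655 (MITF) and -0.169 to 0.0587 (the proliferation marker MKI67). It gave -0.0358 to 0.169 for TEAD1 at week 1 against untreated, -0.0205 to 0.146 for LATS2 at rechallenge against week 2 off drug, -0.185 to 0.0444 for TEAD1 at week 4 off drug against rechallenge, and -0.105 to 0.0607 for TEAD4 at week 4 off drug against continuous drug. Scaling by library totals moved 23 of 100 group means by more than their SD, and RLE factors moved 6. At 5 or fewer counts, as for ANKRD1 in untreated and vector cells and at 20 hours, depth limits any statement.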
